A study of Sus scrofa with 45 samples.

Results

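The genes described here encode parts of the skeletal muscle fibre: the myosin heavy chains MYH1, MYH2, MYH4 and MYH7, the myosin light chain MYLPF, the troponins TNNT3, TNNC2 and TNNI2, the muscle creatine kinase CKM and the calcium pump ATP2A1. Every probe of the porcine array, apart from control probes, was taken whose gene name, RefSeq accession or description named 1 of these 10 genes. All 10 genes had a probe, and the 18 probes found were part of 43603 on the array.

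A skeletal muscle fibre shortens when myosin heavy chains, each carrying light chains, pull on actin filaments. Calcium released inside the fibre binds troponin C and lifts the block that troponin I and troponin T hold on those filaments, and the pump of the sarcoplasmic reticulum ends the contraction by taking the calcium back. Fast and slow fibres build this machinery from different members of the same gene families, and muscle creatine kinase in plasma is a long-used sign of damaged muscle.

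Blood was taken from male miniature pigs that received, from 12 weeks of age, a control diet, a diet with 15% lard and 2% cholesterol (HFCD), or the latter with 37% sucrose added (HFCSD). The study's methods name 5 pigs per diet. Whole blood, kept in PAXgene tubes, was measured after 10, 19 and 27 weeks of feeding, and white blood cells, with RNA isolated by the LeukoLock kit, after 27 weeks. These 12 groups held 45 arrays, 1 sample each: 4 per group, except that 3 whole blood groups had 3 arrays, namely HFCSD after 19 weeks and each lipid-rich diet after 27 weeks. Replicates are numbered in the labels without naming the pig, so equal numbers were not taken as the same animal. With 5 pigs per diet, the arrays of 1 diet at different periods and in the 2 sample types must still share animals. The tests across periods and sample types took arrays as independent, so their SE and p-values leave this sharing out. Kit and scan day changed with the sample type, and scan day also changed between 10 and 27 weeks, so these cannot be told apart from the comparisons of sample types and of feeding periods. Of 7 leukocyte markers, PTPRC, CD3E, CD14 and CXCR2 had 7 probes, each well above background on all 12 white blood cell arrays. Red cell content could not be read, because only 1 of 7 red cell markers had a probe and it was well above background on 1 array.

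Few of the muscle probes gave steady signal in blood. "Well above background" is a mark that the scanning software sets for each spot, and a probe was counted on an array if more than 0.5 of its usable spots carried it. Of the 18 probes, 8 were well above background on no array, 44.4% against 31.2% of all probes. On every array of at least 1 group, 5 of the 18 were well above background, 27.8% against 48.6% of all probes. With the weaker mark of a signal above background, the order turned: 15 of the 18 carried it on every array of a group, and 29266 of all 43603 probes did. The median muscle probe was well above background on 1 array, and the median of all probes on 11.

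TNNI2 alone was well above background on all 45 arrays, and it was the 1 member whose level differed between sample types past the test's threshold. MYLPF was well above background on 35 arrays, a MYH7 probe on 25, and the ATP2A1 probes on 20 and 23. The other 13 probes reached 0 to 6 arrays each, with median normalized levels of 1.52 to 2.95 (log2). Levels here and below are log2 intensities after quantile normalization over the 45 arrays, on which the dimmest probe well above background lay, as a group mean, between 3.30 and 4.29. Each array had between 1 and 7 of the 18 probes well above background.

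**Figure D1:**
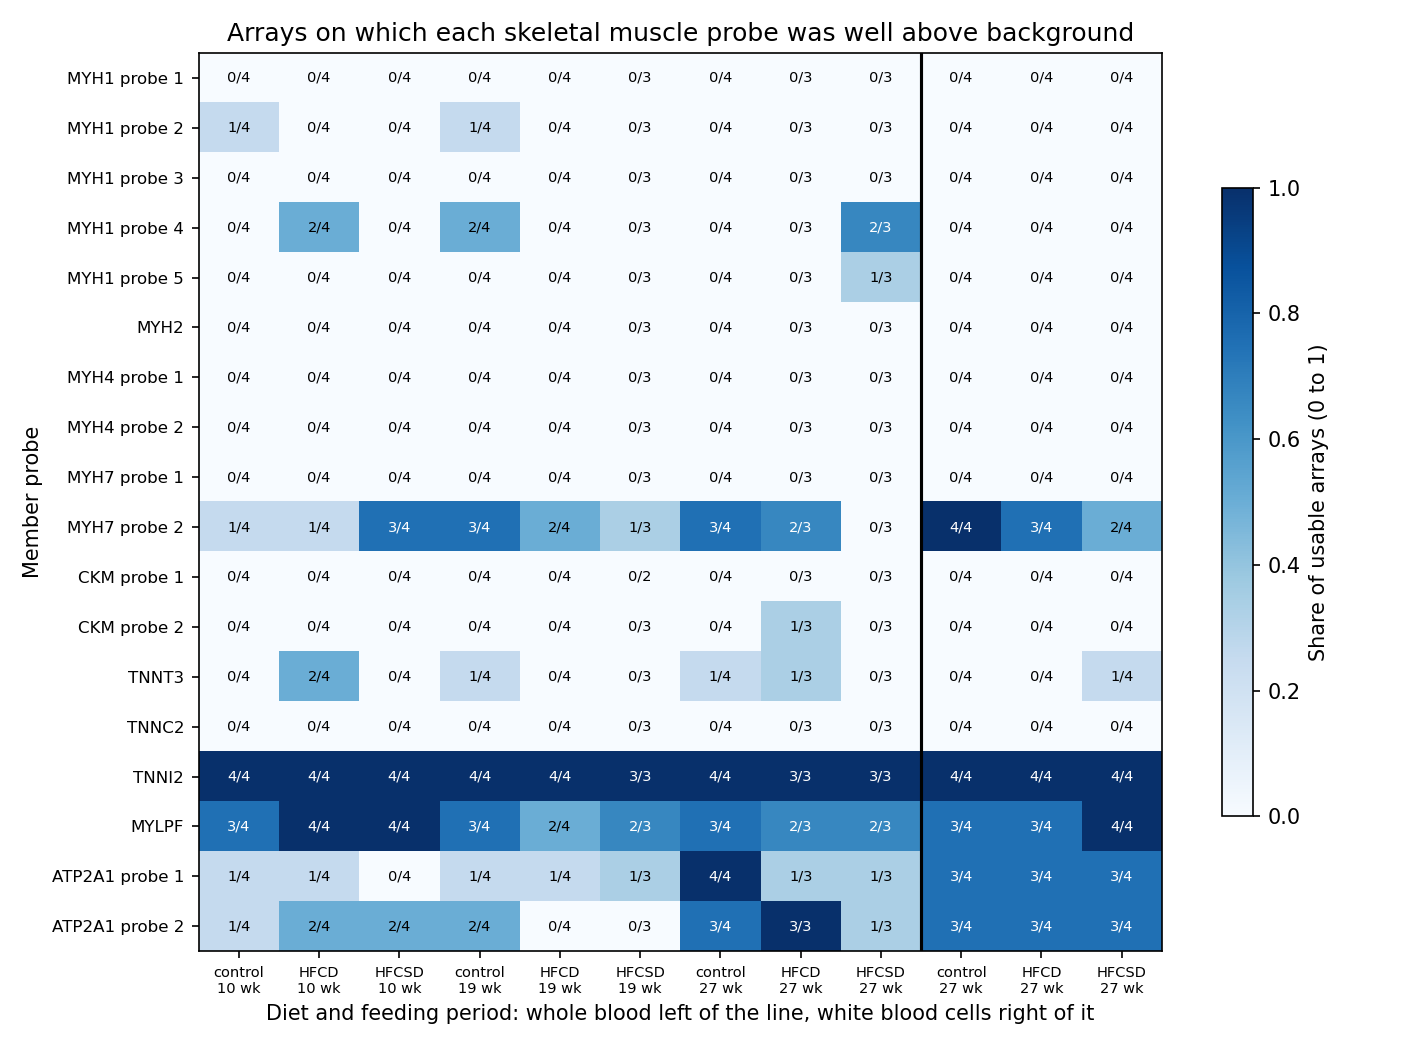
Number of arrays on which each of the 18 skeletal muscle probes was well above background, out of the usable arrays of each of the 12 groups, whole blood to the left of the line and white blood cells to the right, with shading by the share of arrays. TNNI2 fills every group, MYLPF and the ATP2A1 probes reach most groups and fill 1 to 3 of them, and 8 probes stay at 0 throughout.

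The myosin heavy chains are the motors that split ATP to move along actin, and their type sets the speed of a fibre. MYH1, MYH2 and MYH4 belong to fast fibres. The 5 probes of MYH1 were well above background on 0, 2, 0, 6 and 1 of 45 arrays, in the order of their numbers, and all of these arrays were whole blood. MYH2 and both MYH4 probes were well above background on none, with highest levels of 2.10, 3.13 and 3.88. The 5 spots that make up the MYH2 probe were not alike: spots 1 to 4 were well above background on no array and spot 5 on 3.

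MYH1 probe 4 was the fast myosin probe seen most often. It was well above background on 2 of 4 arrays in whole blood of HFCD pigs at 10 weeks, at 3.99 and 2.98, and on 2 of 4 of control pigs at 19 weeks, at 4.65 and 3.98. In whole blood of HFCSD pigs at 27 weeks it was well above background on 2 of 3 arrays, with levels of 5.16, 3.73 and 4.51. On the 12 white blood cell arrays it was never well above background, and 10 of these read between 1.36 and 1.41. The mean of the 3 whole blood arrays of HFCSD pigs at 27 weeks was 2.22-fold the dimmest level that could be seen in white blood cells of that diet. That mean includes the array at 3.73, which was not well above background, so the value is not a firm lower bound. The probe's target sequences also include the RefSeq transcript of MYH2, as do those of MYH1 probe 3. They further include the sequence entry of both MYH4 probes, as do those of MYH1 probe 1. The probe therefore does not tell these genes apart.

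Single arrays stood out for the other MYH1 probes. MYH1 probe 2 read 5.84 on control replicate 4 of whole blood at 10 weeks, against a median of 1.93 over the 45 arrays, and MYH1 probe 5 read 4.43 on HFCSD replicate 1 of whole blood at 27 weeks, against a median of 1.52. On the array where MYH1 probe 2 was bright, MYH1 probe 5 was not well above background. In the group where MYH1 probe 5 was bright, MYH1 probe 2 was well above background on no array. Its highest level there was 4.21, close to the dimmest level that could be seen in that group, 4.22 to 4.37 by array. The sequences of these probes are shown because they overlap, with the 32 bases they share in capitals. They were still not well above background on the same arrays.
MYH1 probe 2: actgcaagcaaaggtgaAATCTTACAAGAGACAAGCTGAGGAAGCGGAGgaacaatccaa
MYH1 probe 5: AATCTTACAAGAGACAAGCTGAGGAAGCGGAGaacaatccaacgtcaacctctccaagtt

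MYH7 is the myosin of slow skeletal fibres and of the heart ventricle. Its probes differed: MYH7 probe 1 was well above background on no array and MYH7 probe 2 on 25 of 45, in 11 of the 12 groups. White blood cells gave MYH7 probe 2 levels of 3.40, 3.40, 3.58 and 4.47 in control pigs, all 4 well above background. It read 3.86, 3.02, 4.68 and 4.25 in HFCD pigs, where 3 of 4 were well above background, and 3.02, 4.58, 4.26 and 3.34 in HFCSD pigs, where 2 of 4 were. The 3 groups overlapped.
In whole blood at 27 weeks MYH7 probe 2 read 3.75, 2.71, 3.68 and 4.54 in control pigs, 4.00, 3.54 and 3.88 in HFCD pigs, and 3.99, 3.85 and 3.57 in HFCSD pigs, a span that covers most of the white blood cell values. Group means over the 12 groups ran from 3.42 ± 0.17 (SD, n = 4) for HFCD in whole blood at 10 weeks to 4.18 ± 0.43 (SD, n = 4) for control in whole blood at 19 weeks, close to the dimmest level that can be seen. The probe is shown as the only heavy chain sequence with signal on every array of a group.
MYH7 probe 2: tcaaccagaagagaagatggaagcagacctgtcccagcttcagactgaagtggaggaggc

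MYLPF is the regulatory light chain that binds the neck of fast myosin heavy chains. Among white blood cell arrays it was high on most arrays and low on 2. Control pigs read 1.63, 7.75, 7.39 and 8.70, HFCD pigs read 7.41, 2.49, 6.36 and 7.81, and HFCSD pigs read 7.17, 7.02, 5.54 and 4.27. Control replicate 1 and HFCD replicate 2 were the arrays not well above background, and the other 10 were.
Whole blood at 27 weeks varied less. MYLPF read 4.38, 4.63, 5.16 and 4.83 in control pigs, 3.86, 4.63 and 3.11 in HFCD pigs and 5.20, 5.07 and 3.24 in HFCSD pigs. At 10 weeks it read 3.84, 6.45, 5.18 and 5.85 in control pigs, 4.30, 5.30, 5.30 and 4.03 in HFCD pigs and 5.07, 6.13, 5.33 and 5.59 in HFCSD pigs. The diets overlapped at both times.
At 19 weeks MYLPF read 3.65, 4.75, 4.95 and 5.55 in control pigs, 3.07, 5.26, 5.05 and 1.58 in HFCD pigs and 5.0, 3.33 and 3.60 in HFCSD pigs, again with overlap. Ordered by mean, the groups ran from 6.37 ± 3.20 (SD, n = 4) in white blood cells of control pigs to 3.74 ± 1.74 (SD, n = 4) in whole blood of HFCD pigs at 19 weeks. The probe sequence is shown because this member had the widest range of levels.
MYLPF: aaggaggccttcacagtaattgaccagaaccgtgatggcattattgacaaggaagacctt

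Troponin T, troponin C and troponin I form the switch on the actin filament, and TNNT3, TNNC2 and TNNI2 are its fast skeletal forms. TNNT3, which ties the complex to tropomyosin, was well above background on 6 of 45 arrays in 5 groups, at levels of 3.25 to 3.77. TNNC2, the calcium sensor, was well above background on none, with a highest level of 4.13. The switch was thus not seen as a whole: its inhibitory part, TNNI2, was the only one with steady signal.

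TNNI2 was highest in white blood cells. Control pigs read 8.38, 7.26, 8.23 and 7.97 there, HFCD pigs 6.99, 6.56, 7.66 and 7.29, and HFCSD pigs 7.22, 6.43, 7.46 and 7.0. In whole blood at 27 weeks control pigs read 6.67, 6.20, 6.96 and 5.75, HFCD pigs 5.65, 5.97 and 5.49, and HFCSD pigs 6.42, 6.62 and 5.23. Every white blood cell array lay above every whole blood array of the same diet for control and HFCD, and for HFCSD 3 of 4 did.
In whole blood at 10 weeks TNNI2 read 6.93, 5.96, 6.37 and 6.36 in control pigs, 5.61, 5.96, 5.99 and 5.89 in HFCD pigs and 5.77, 6.05, 5.68 and 5.96 in HFCSD pigs. At 19 weeks it read 6.64, 6.18, 6.33 and 6.45 in control pigs, 4.77, 6.11, 6.02 and 5.81 in HFCD pigs and 5.94, 5.44 and 4.83 in HFCSD pigs. At 10 weeks control replicate 2 lay among the diet arrays and the other 3 control arrays above them all, and at 19 weeks no diet array reached the lowest control array.
The sequence of the probe is shown because the differences between sample types below rest on it.
TNNI2: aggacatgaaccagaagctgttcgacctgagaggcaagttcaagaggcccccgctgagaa

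Ordered by mean, TNNI2 stood at 7.96 ± 0.50 (SD, n = 4) in white blood cells of control pigs, 7.13 ± 0.46 (SD, n = 4) for HFCD and 7.03 ± 0.44 (SD, n = 4) for HFCSD. Whole blood followed, with 6.41 ± 0.40, 6.40 ± 0.20 and 6.39 ± 0.53 (SD, n = 4 each) in control pigs at 10, 19 and 27 weeks. Below these came HFCSD at 27 weeks with 6.09 ± 0.75 (SD, n = 3), HFCSD and HFCD at 10 weeks with 5.87 ± 0.17 and 5.86 ± 0.17 (SD, n = 4 each), HFCD at 27 weeks with 5.70 ± 0.24 (SD, n = 3), HFCD at 19 weeks with 5.68 ± 0.62 (SD, n = 4) and HFCSD at 19 weeks with 5.40 ± 0.55 (SD, n = 3). Only 2 steps in this order were larger than the SD of the higher group: from control to HFCD in white blood cells, 0.83, and from HFCSD in white blood cells to control in whole blood at 10 weeks, 0.62. All other neighbours lay within 1 SD of each other.

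**Figure D2:**
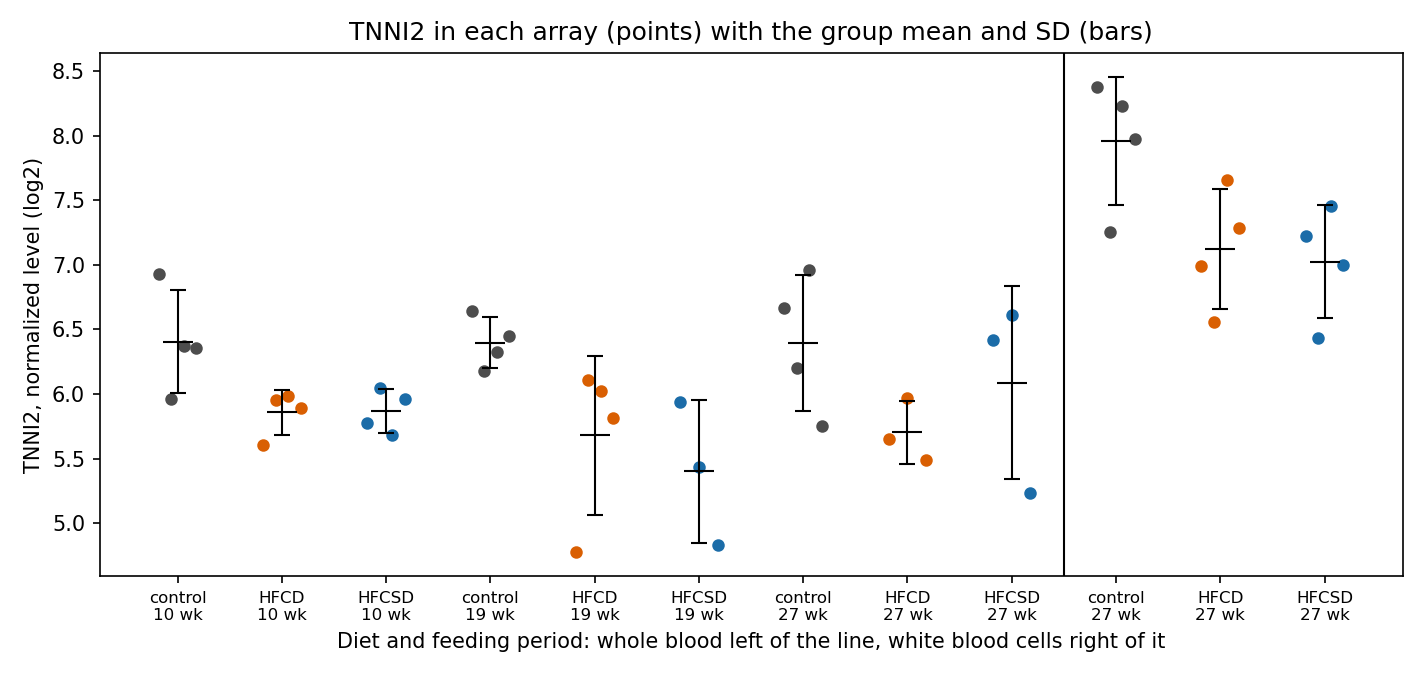
Normalized level of TNNI2 (log2) on each of the 45 arrays by diet and feeding period, whole blood to the left of the line and white blood cells to the right, with points for arrays and bars for the group mean and SD. White blood cell arrays lie between 6.43 and 8.38, whole blood arrays between 4.77 and 6.96, and control arrays sit at the upper side in most sets.

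CKM restores ATP from creatine phosphate during contraction. CKM probe 1 was well above background on 0 of 44 usable arrays, and CKM probe 2 on 1 of 45, HFCD replicate 1 of whole blood at 27 weeks, at 3.42. Both had medians near the noise, 1.89 and 1.74. The probes share 51 bases, so they do not read the transcript independently.

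ATP2A1 pumps calcium back into the sarcoplasmic reticulum of fast fibres. Its probes share 52 bases. Among white blood cells ATP2A1 probe 1 read 2.11, 5.58, 5.92 and 6.0 in control pigs, 5.01, 2.61, 4.52 and 6.03 in HFCD pigs and 6.03, 5.13, 3.59 and 3.1 in HFCSD pigs. ATP2A1 probe 2 read 2.04, 5.63, 5.90 and 5.81 in control pigs, 4.94, 2.15, 4.17 and 5.98 in HFCD pigs and 5.81, 5.10, 3.60 and 2.51 in HFCSD pigs. The low arrays were control replicate 1 and HFCD replicate 2, as for MYLPF, and HFCSD replicate 4.
In whole blood at 27 weeks ATP2A1 probe 1 read 4.27, 4.59, 4.60 and 4.73 in control pigs, 3.26, 4.31 and 3.69 in HFCD pigs and 5.41, 4.06 and 2.62 in HFCSD pigs. ATP2A1 probe 2 read 4.22, 3.98, 4.22 and 4.56 in control pigs, 3.33, 4.42 and 3.75 in HFCD pigs and 5.69, 4.28 and 1.48 in HFCSD pigs. Control pigs were close together there and HFCSD pigs far apart. The remaining 6 whole blood groups had means of 2.72 to 3.60 for ATP2A1 probe 1 and of 2.85 to 4.04 for ATP2A1 probe 2.

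Levels in white blood cells were divided by those in whole blood within each diet at 27 weeks. The paper takes such a ratio as an indicator of what white blood cells contribute to whole blood RNA. Kit and scan day differ between the sample types, and the white blood cell arrays also held platelet RNA, as described below. The ratio is therefore not a direct measure of what white blood cells carry. The ratio of TNNI2 was 2.96 in control pigs, 2.68 under HFCD and 1.91 under HFCSD. On the log2 scale the differences were 1.56 ± 0.34 (SE; adjusted p = 0.00105, limma), 1.42 ± 0.37 (SE; adjusted p = 0.00407) and 0.94 ± 0.37 (SE; adjusted p = 0.0360). TNNI2 was higher than the whole blood mean on 4 of 4 white blood cell arrays in each diet. It was the only member called, with 1 of 3 probes tested in control pigs, where 45.3% of all probes tested were called (24.4% higher, 20.9% lower), 1 of 2 under HFCD, where 47.5% were (25.5% higher, 22% lower), and 1 of 2 under HFCSD, where 58.8% were (37.1% higher, 21.6% lower). A call by itself is therefore common in this comparison. Fewer cells of a type and less RNA per cell cannot be told apart in such samples.

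The median of all probes tested also moved, by 0.17 in control pigs, 0.19 under HFCD and 0.42 under HFCSD, so that TNNI2 lay 1.40, 1.23 and 0.51 above it. Scaling to the 75th percentile moved these medians to 0.30, 0.38 and 0.50, with TNNI2 1.43, 1.11 and 0.47 above them. With a normexp background correction the median was 0.10, 0.12 and 0.23 and TNNI2 lay 0.95, 0.68 and 0.36 above it. The HFCSD call was lost without 1 of 4 single arrays: the change was 0.51 (adjusted p = 0.257) without whole blood replicate 3, 0.87 (adjusted p = 0.0726) without white blood cell replicate 1, 0.79 (adjusted p = 0.0982) without white blood cell replicate 3, and 0.95 (adjusted p = 0.0572) without white blood cell replicate 4. It was also lost without a filter on dim probes (0.94, adjusted p = 0.0629), with only the 2 groups in the fit (0.94, adjusted p = 0.0667), with the share of bright spots as covariate (0.94, adjusted p = 0.177) and by the methods' t-test (0.94, adjusted p = 0.133). Pairing arrays by replicate number lost it too, with the values given in the last section. Whether the ratio of TNNI2 differed between diets was tested directly, and the differences from control, -0.14 ± 0.50 (SE; adjusted p = 1.00, limma) under HFCD and -0.63 ± 0.51 (SE; adjusted p = 0.502) under HFCSD, did not pass. Of the 4 member probes tested for such a difference, 0 were called by limma under either diet, against 0% of all probes under HFCD (0% higher, 0% lower) and 1.38% under HFCSD (0.402% higher, 0.976% lower). An unadjusted p under 0.05 was had by 0 of them, against 267 of 20072 probes under HFCD and 3922 of 20379 under HFCSD. The number of all probes called under HFCSD, 281, moved to 86 with the 75th percentile scaling and 839 with the normexp correction.

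MYLPF had ratios of 3.07, 4.43 and 2.83 in control, HFCD and HFCSD pigs, with a spread between arrays larger than these differences. Only under HFCSD did it enter the test, where 4 of 4 white blood cell arrays were well above background. The log2 difference of 1.498 ± 1.324 (SE; adjusted p = 0.339, limma) did not pass. It ran from 0.87 without whole blood replicate 3 to 2.07 without white blood cell replicate 4, and was 0.66 with the normexp correction. With all arrays, mean log2 levels of MYLPF in white blood cells and whole blood were 6.37 and 4.75 in control pigs, and 6.02 and 3.87 under HFCD. Without control replicate 1 of white blood cells the log2 difference in control pigs was 3.20. Without HFCD replicate 2 of white blood cells the log2 difference under HFCD was 3.32. MYLPF entered these tests only because the dark array was left out, so no call is read from them.
For ATP2A1 probe 1 the ratio was 1.28 in control pigs, and for ATP2A1 probe 2 it was 1.52 in control and 1.39 in HFCD pigs. Single arrays moved these: without 1 array the log2 difference ran from -0.00990 to 1.29 for ATP2A1 probe 1 in control pigs, highest without white blood cell replicate 1, and from -0.0837 to 1.19 for ATP2A1 probe 2 under HFCD, highest without white blood cell replicate 2. No ratio is given for ATP2A1 probe 1 under HFCD or for either probe under HFCSD, where 1 of 3 whole blood arrays was well above background. The tests that could be made, 0.36 ± 0.84 (SE; adjusted p = 0.752) for probe 1 in control pigs and 0.47 ± 1.03 (SE; adjusted p = 0.724) for probe 2 under HFCD, did not pass. MYH7 probe 2 had ratios of 1.03 in control and 1.11 in HFCD pigs. Its tested log2 difference in control pigs was 0.04 ± 0.40 (SE; adjusted p = 0.942, limma). That turned to -0.0550 and -0.0386 under the 75th percentile scaling and the normexp correction. MYH7 probe 2 gave no ratio under HFCSD, where no whole blood array was well above background. Its level in white blood cells there, 3.80, did not exceed the dimmest that could be seen in whole blood of that group, 4.29. MYH1 probe 4 was set only against the dimmest visible level, as given above. The other 12 probes allowed no ratio, since they were well above background on none or 1 of the arrays compared.

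The control replicate 1 and HFCD replicate 2 arrays of white blood cells, dark for MYLPF and ATP2A1, also had little platelet RNA. Of 6 platelet markers, PPBP, PF4 and ITGA2B had 4 probes, all well above background on every white blood cell array, and PF4 had the highest median, 13.90. The summed level of the 4 probes (log2) was 10.99, 15.63, 15.57 and 15.70 in control pigs, 15.01, 9.94, 13.83 and 15.29 in HFCD pigs and 15.35, 15.24, 13.41 and 12.73 in HFCSD pigs. Both arrays were the lowest of the 12, and HFCSD replicates 3 and 4 and HFCD replicate 3 came next, as for ATP2A1 probe 2.
Over the 12 white blood cell arrays Pearson's r with this sum was 0.966 for MYLPF, 0.945 for ATP2A1 probe 1 and 0.953 for ATP2A1 probe 2, and 0.0745 for TNNI2. Over the 33 whole blood arrays it was 0.757, 0.643 and 0.754, and 0.567 for TNNI2. These are descriptions, since arrays of 1 diet and period share their conditions and the 12 arrays share a scan day. The sum ranged from 11.27 to 14.75 in whole blood, with a median of 14.05. What platelet RNA contributed to these members was not tested.
MYLPF also followed other lists in white blood cells: r was 0.971 with the summed level of broadly expressed relatives of the muscle genes, 0.882 with smooth muscle markers and -0.745 with leukocyte markers. In whole blood these were 0.672, 0.445 and 0.202. With the sum of other skeletal muscle genes, described below, MYLPF had 0.718 in white blood cells and 0.254 in whole blood. ATP2A1 probes 1 and 2 had r of 0.965 and 0.979 with the relatives in white blood cells, and 0.887 and 0.879 with smooth muscle markers. TNNI2 had r of 0.0969, 0.251 and 0.507 in white blood cells with the sums of relatives, smooth muscle and leukocyte markers. Its highest r was with the sum of cardiac muscle markers, 0.707 over 12 white blood cell and 0.778 over 33 whole blood arrays, and with leukocyte markers it had 0.616 in whole blood. The cardiac sum was mostly that of 1 NPPA probe. This probe had medians of 10.13 in whole blood and 10.82 in white blood cells, against median sums of 10.29 and 10.97. Of the 7 cardiac probes 3, among them the other NPPA probe, were well above background on no array.

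**Figure D3:**
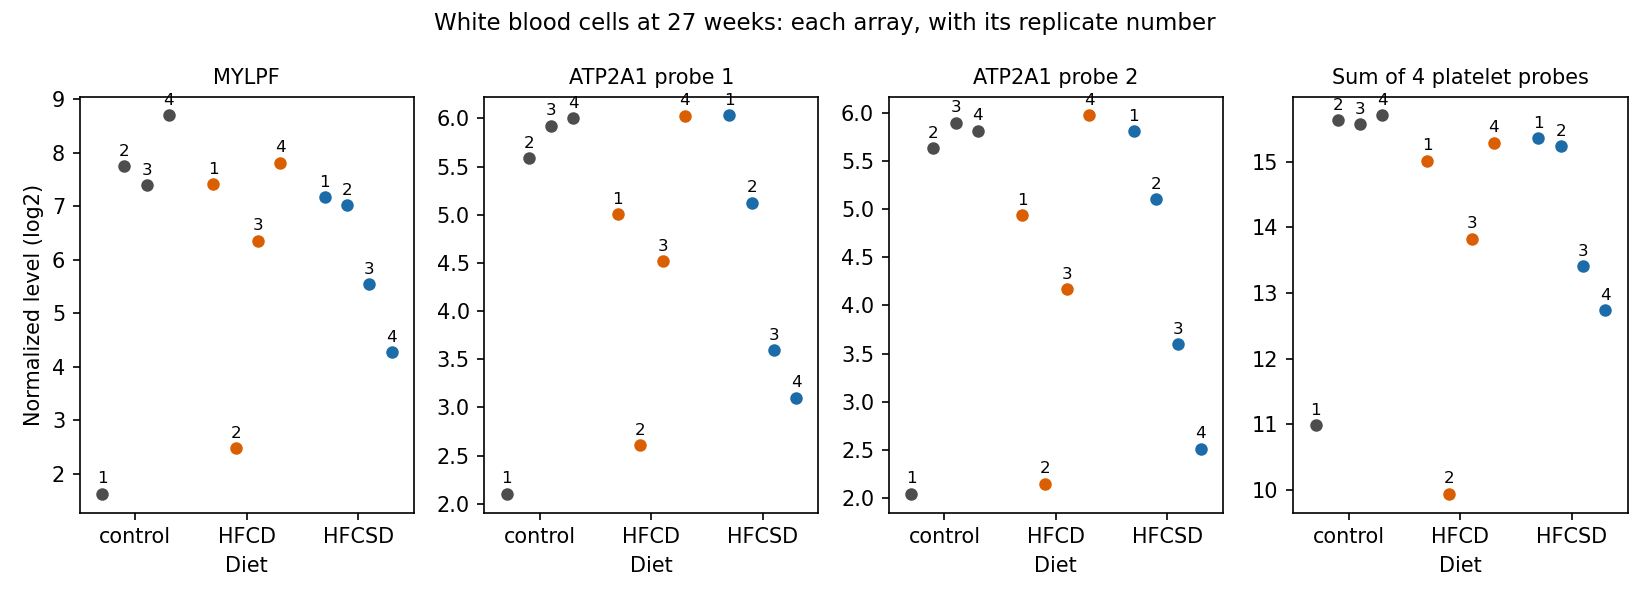
Normalized levels (log2) of MYLPF, ATP2A1 probe 1, ATP2A1 probe 2 and the sum of 4 platelet probes on each of the 12 white blood cell arrays at 27 weeks, by diet, with the replicate number at each point. Control replicate 1 and HFCD replicate 2 are the lowest points of all 4 panels.

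Among themselves, some members moved together over the arrays and others did not. In white blood cells r was 0.956 between MYLPF and ATP2A1 probe 1, 0.951 between MYLPF and ATP2A1 probe 2 and 0.993 between the ATP2A1 probes (12 arrays). TNNI2 had r of -0.00174 with MYLPF, 0.0465 with ATP2A1 probe 1 and 0.0801 with ATP2A1 probe 2. In whole blood the corresponding values of TNNI2 were 0.414, 0.339 and 0.431 (33 arrays). MYH7 probe 2 stayed between -0.146 and 0.466 with TNNI2, MYLPF and the ATP2A1 probes in either sample type.

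The named probes most like each member over the 45 arrays were ranked by Pearson's r among 2148 probes seen on at least 23 arrays. For TNNI2 they were TREM1 with r of 0.857, RGS2 with 0.834 and SLC26A6 with 0.832. Within sample types TREM1 had r of 0.759 over 33 whole blood and 0.823 over 12 white blood cell arrays, while RGS2 had 0.735 and 0.405.
For MYLPF they were PPP1R14A with r of 0.921, PRDX6 with 0.910 and ANPEP with 0.901. For ATP2A1 probe 2 they were 2 probes of COX8H with 0.890 and 0.884 and a PPBP probe with 0.884. For MYH7 probe 2 they were TF with 0.649, LOC733581 with 0.645 and NEDD8 with 0.581, and over the 12 white blood cell arrays alone 0.936, 0.876 and 0.419. Sample type, diet and period are shared between the points of each of these correlations.

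The diets were compared with control within each sample type and period, which asks whether a lipid-rich diet changes these transcripts in blood. TNNI2 was lower under the diet in all 8 comparisons, none past adjustment. In whole blood at 10 weeks the difference was -0.55 ± 0.20 (SE; adjusted p = 0.420, limma) for HFCD and -0.54 ± 0.20 (SE; adjusted p = 1.00) for HFCSD, with 4 of 4 arrays of each diet below the control mean. At 19 weeks it was -0.72 ± 0.33 (SE; adjusted p = 0.402) for HFCD and -0.997 ± 0.359 (SE; adjusted p = 0.332) for HFCSD, with 4 of 4 and 3 of 3 arrays below the lowest control array. At 27 weeks it was -0.69 ± 0.38 (SE; adjusted p = 0.929) for HFCD and -0.31 ± 0.38 (SE; adjusted p = 0.586) for HFCSD, with 3 of 3 and 1 of 3 arrays below the control mean. Without HFCSD replicate 3 the last of these was 0.12, and another setting brought it to -0.00987. In white blood cells it was -0.83 ± 0.31 (SE; adjusted p = 0.978) for HFCD and -0.93 ± 0.31 (SE; adjusted p = 0.341) for HFCSD, with 4 of 4 arrays of each diet below the control mean. The 2 diets of each set share their control arrays.

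Slides carried several groups, so TNNI2 could also be compared within a slide. On 9 slides with control and HFCD arrays, HFCD was lower on 8, with a median difference of -0.52. On 8 slides with control and HFCSD arrays, HFCSD was lower on 6, with a median difference of -0.71. These slides span periods and sample types that share pigs, and on most of them the same control arrays served both diets. The slides are therefore not independent observations. At 19 weeks control replicates 2 to 4 had a scan day of their own. On the shared day, with 1 control array, the difference was -0.96 for HFCD and -1.24 for HFCSD. Platelet RNA was not level between diets either: the mean platelet sum in whole blood at 19 weeks was 14.14 ± 0.22 (SD, n = 4) in control pigs, 12.74 ± 1.67 (SD, n = 4) under HFCD and 13.68 ± 0.85 (SD, n = 3) under HFCSD. Under HFCD it was also lower at 10 weeks, 13.55 ± 0.08 against 14.38 ± 0.24 in control pigs (SD, n = 4 each), and at 27 weeks, 13.71 ± 0.23 (SD, n = 3) against 14.54 ± 0.18 (SD, n = 4), where HFCSD had 13.37 ± 1.47 (SD, n = 3). At 19 weeks the leukocyte sum was 13.74 ± 0.31 (SD, n = 4), 13.12 ± 0.53 (SD, n = 4) and 13.15 ± 0.73 (SD, n = 3) in control, HFCD and HFCSD pigs. The cardiac sum, mostly that of 1 NPPA probe, was 10.66 ± 0.28, 9.68 ± 0.72 and 9.49 ± 0.72 there. At 10 weeks the same groups had leukocyte sums of 13.57, 13.62 and 13.38, and at 27 weeks of 13.99, 13.99 and 13.55. Their cardiac sums were 10.11, 9.99 and 10.02 at 10 weeks and 10.78, 10.47 and 10.38 at 27 weeks. The smooth muscle probes tested in whole blood differed from control by medians of -1.45, -2.38 and -1.82 under HFCD at 10, 19 and 27 weeks. Under HFCSD these medians were -0.60, -1.17 and -1.68, though 2 of 6 such probes were called higher at 27 weeks. The part of these lists in the TNNI2 values was not tested.

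No member was called in any diet comparison by limma or by the methods' t-test, out of 1 to 3 probes tested in each, and 5 of 16 such tests had an unadjusted p under 0.05, all of TNNI2. Of all probes tested, between 280 of 16198 (HFCSD at 10 weeks) and 5524 of 17135 (HFCSD in whole blood at 27 weeks) had such a p in a comparison. In whole blood at 10 weeks 0 of 2 were called for HFCD, against 0.0281% of all probes tested (0.0225% higher, 0.00563% lower), and 0 of 2 for HFCSD, against 0.0123% (0.0123% higher, 0% lower). At 19 weeks 0 of 1 were called for HFCD, against 0.0181% (0.012% higher, 0.00602% lower), and 0 of 1 for HFCSD, against 0.0175% (0.0116% higher, 0.00582% lower). At 27 weeks 0 of 3 were called for HFCD, against 0.0165% (0.0165% higher, 0% lower), and 0 of 2 for HFCSD, against 10.6% (6.78% higher, 3.87% lower). White blood cells had 0 of 2 for HFCD, against 0.0276% (0.0221% higher, 0.00552% lower), and 0 of 3 for HFCSD, against 0.0366% (0.0262% higher, 0.0105% lower). With so few calls among all probes, the diet comparisons say little of these members, apart from HFCSD in whole blood at 27 weeks. The lowest adjusted p among the 8 diet tests of members other than TNNI2 was 0.504.

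Feeding time was followed in whole blood, 27 against 10 weeks within each diet. TNNI2 stayed near its level: the difference was -0.01 ± 0.28 (SE; adjusted p = 0.979, limma) in control pigs, -0.15 ± 0.31 (SE; adjusted p = 0.857) under HFCD and 0.22 ± 0.35 (SE; adjusted p = 0.703) under HFCSD. In control pigs ATP2A1 probe 1 had read 3.31, 4.5, 2.37 and 4.04 at 10 weeks, and 3 of these 4 arrays lay below all 4 arrays of 27 weeks. The difference was 0.99 ± 0.41 (SE; adjusted p = 0.0957). Without control replicate 2, the highest array of 10 weeks, it was 1.31 (adjusted p = 0.0484), a call that rests on leaving out that array. The probe entered this test through the 4 arrays of 27 weeks, and 1 of 4 arrays at 10 weeks was well above background, so both sizes are set against levels mostly at background. MYLPF differed by -0.86 ± 0.80 (SE; adjusted p = 0.643) under HFCD and -1.03 ± 0.53 (SE; adjusted p = 0.216) under HFCSD, and ATP2A1 probe 2 by 0.99 ± 0.57 (SE; adjusted p = 0.410) under HFCD. MYLPF entered through the 10-week arrays and was well above background on 2 of 3 arrays at 27 weeks under each diet, and ATP2A1 probe 2 entered through the 27-week arrays with 2 of 4 at 10 weeks. Called by limma were 0 of 2 members tested in control pigs, against 20.5% of all probes (11.1% higher, 9.35% lower), 0 of 3 under HFCD, against 3.01% (0.663% higher, 2.34% lower), and 0 of 2 under HFCSD, against 13% (6.37% higher, 6.63% lower). Of these 7 tests 1 had an unadjusted p under 0.05, against 6300 of 17140 probes in control pigs, 3393 of 18862 under HFCD and 5100 of 16461 under HFCSD, and the methods' t-test called 0 after adjustment.

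Other genes of skeletal muscle were read from a fixed list, 29 of whose 46 genes had 46 probes on the array. Of these probes 17 were well above background on no array and 17 on every array of a group. The brightest by mean over the 45 arrays were DES, an intermediate filament of all muscle types, at 9.39 ± 0.99, the muscle glycogen phosphorylase PYGM at 9.23 ± 2.06, the tropomyosin TPM2 at 8.71 ± 0.67, the transcription factor MYOG at 8.38 ± 0.54, the fatty acid binding protein FABP3 at 7.99 ± 0.57 and the tropomyosin TPM1 at 6.91 ± 1.29 (SD over arrays, n = 45).
In white blood cells against whole blood, 2 of 11 tested probes of the list were higher and 3 lower in control pigs, with a median of -0.45, 1 of 12 higher and 4 lower under HFCD, with a median of -0.08, and 4 of 15 higher and 5 lower under HFCSD, with a median of -0.20. The shares called, 45.5%, 41.7% and 60%, were close to the 45.3%, 47.5% and 58.8% of all probes. Unlike TNNI2, 1 of 2 probes of PYGM was lower in white blood cells, the other being well above background on no array, with differences of -3.67 ± 0.53 (SE; adjusted p = 2.26e-05, limma) in control pigs, -3.81 ± 0.58 (SE; adjusted p = 3.97e-05) under HFCD and -4.48 ± 0.58 (SE; adjusted p = 4.94e-06) under HFCSD. TPM2 was higher, by 1.54 ± 0.25 (SE; adjusted p = 6.48e-05) in control pigs. RYR1, the calcium release channel, was called higher there too, but its probe was well above background on 4 of 33 whole blood arrays, so no size is given.
Under HFCSD in whole blood at 27 weeks 2 of 11 probes of the list were higher than in control and none lower, 18.2% against 10.6% of all probes. They were a dimmer probe of TPM1 than the 1 above, by 2.36 ± 0.48 (SE; adjusted p = 0.0235, limma), and 1 of 3 probes of DES, by 2.04 ± 0.36 (SE; adjusted p = 0.0186). Of the other 2 DES probes, 1 was well above background on no array and the other was not called. Of 6 smooth muscle probes tested there, 2 were also called higher and none lower, with a median of -1.68 over all 6. The 1 fibroblast probe tested differed by 2.47 and was not called. In white blood cells against whole blood this dimmer TPM1 probe was lower, with differences of -1.25 under HFCD and -1.96 under HFCSD. The called DES probe was lower there too, with -1.02 ± 0.35 (SE; adjusted p = 0.0214, limma) under HFCD and -2.65 ± 0.35 (SE; adjusted p = 5.95e-06) under HFCSD. Its difference between sample types under HFCSD lay -2.20 ± 0.47 (SE; adjusted p = 0.0286, limma) from that in control pigs. It was the only 1 of 15 list probes so called, 6.67% against 1.38% of all probes. For HFCD 0 of 14 were called. Other TPM1 probes went the other way without being called. Their medians over all whole blood and all white blood cell arrays were 6.77 and 8.11 for the 1 named above. They were 4.12 and 5.76 for another, and 3.07 and 4.53 for the dimmest of them. A further TPM1 probe was well above background on no array. In the other 7 diet comparisons 0 probes of the list were called by limma, with 0 to 2 at an unadjusted p under 0.05 in each. For 27 against 10 weeks 4 of 11 were called lower in control pigs, 36.4% against 20.5% of all probes. Called were 0 of 13 under HFCD, against 3.01%, and 1 of 12 higher and 2 lower under HFCSD, 25% against 13%. The DES probe called under HFCSD differed by -1.03 ± 0.30 (SE; adjusted p = 0.0293, limma) in control pigs and by 1.05 ± 0.29 (SE; adjusted p = 0.0411) under HFCSD.

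The broadly expressed relatives of the members, nonmuscle actin, tropomyosins, light chains and the ubiquitous calcium pump ATP2A2, had 16 probes, all well above background on every array of a group, 14 of them on all 45 arrays. In white blood cells against whole blood 7 of 16 were higher in control pigs, 7 of 16 under HFCD and 8 of 16 under HFCSD, and none was lower. These are 43.8%, 43.8% and 50%, against 24.4%, 25.5% and 37.1% of all probes called higher. Their median differences were 0.40, 0.81 and 0.86.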

How the data were processed

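The authors deposited spot intensities that Agilent Feature Extraction wrote (10.5.1.1 per the file headers, 9.5.3.1 per the labels), with background subtracted within each array, and a series table of intensities, quantile normalized on a linear scale, used only as an alternative. The flags of presence and of outlier spots were those deposited. The members and lists were chosen with earlier results of these data known. All 10 genes matched, by gene name, RefSeq accession or description, with gene names from RefSeq tables of Sscrofa11.1; MYH4 and ATP2A1 were matched by description alone. Control spots and spots marked as outliers were left out, log2 intensities were quantile normalized over 45 arrays, and spots of a probe were averaged. A probe was tested if well above background on every usable array of 1 compared group, with at least 2 usable arrays per group. R 4.3.3, limma 3.58.1 and Python 3.11.15 were used, with Benjamini-Hochberg adjustment over all probes tested at 0.05. Depth of an array is unknown, and the number of arrays limits the precision. Named singly were members well above background on every array of a group, the largest calls and the 6 brightest of the other muscle genes, and the 3 probes most like a member. Alternatives were other scalings, a normexp correction with an offset of 50, filters, blocks, a covariate, the methods' t-test and each array left out. Pairs by replicate number entered only as an alternative.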

Additional observations from a re-analysis of the deposited data

Results flagged for a closer look

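ATP2A1 probe 1 read 2.11 on control replicate 1 of white blood cells at 27 weeks, far below the other 3 control arrays, which lay between 5.58 and 6.0. ATP2A1 probe 2 read 2.04 on the same array, against 5.63 to 5.90 on the others. Both stood out by the gap to the nearest array as a share of the range, a test applied to 43 groups of 4 arrays, of which chance picks out about 1 in 20. By number alone, the 2 groups picked out are about as many as chance would give. The probes overlap in sequence and both gaps are on the same array, so these are not independent observations. That array was also the lowest of the control white blood cell arrays for MYLPF and for the platelet sum, as given above. Why it was low was not tested.

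A spot outside the measurements above also stood out. On replicate 2 of HFCSD in whole blood at 19 weeks, the spot of CKM probe 1 had a signal of 1954 against 2.30 to 11.9 on the other arrays. The software had marked it as not uniform, and it was left out. The overlapping CKM probe 2 had a signal of 7.77 on that array, on the same linear scale, and was not well above background.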

How the results depend on the processing

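TNNI2 kept its higher level in white blood cells of control and HFCD pigs under every alternative, with differences of 1.05 to 1.73 and 0.80 to 1.49 (log2), and of 1.35 to 1.80 and 1.24 to 1.61 without single arrays, though with a normexp correction the ratios moved to 2.07 and 1.74. Under HFCSD its call was lost without a filter on dim probes (0.94, adjusted p = 0.0629), with only the 2 groups in the fit (0.94, adjusted p = 0.0667), with the share of bright spots as covariate (0.94, adjusted p = 0.177), and by the methods' t-test after adjustment (0.94, adjusted p = 0.133) and at its fold threshold (0.94). Leaving out single arrays gave 0.51 to 1.20.

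The replicate block, which pairs arrays of the same number, gave 0.95 for HFCSD (adjusted p = 0.0892) and lost the call there, but kept it with 1.56 in control and 1.37 under HFCD. An array without a partner drops out of a block. Samples of 1 number in whole blood and white blood cells correlated from -0.44 to 0.47, and 4 of 10 were closest to their own number. Between periods 20 of 31 pairs were over 0.1 and 17 of 31 closest to their own number, and the 3 HFCSD pairs of 10 and 27 weeks had 0.335, 0.188 and 0.498. With the block no member was called for 27 against 10 weeks. Between white blood cells and whole blood, the difference of ATP2A1 probe 2 under HFCD turned to -0.0837 with the block. Slide as a fixed block was chosen after the data had been seen.

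The number of members called moved from 1 to 2 without the filter in control pigs and to 2 with the weaker flag and 2 without the filter under HFCD. Under HFCSD it moved to 4 with the weaker flag, 3 without the filter, and 0 with only the 2 groups, the replicate block, the covariate and the methods' t-test in both forms. The members added, MYH1 probe 4 in all 3 diets and MYH1 probe 3 and TNNC2 under HFCSD, were lower in white blood cells, opposite to TNNI2. They were well above background on at most 2 of the arrays compared, so no size is read from these fits. Without the filter TNNI2 was not among those called under HFCSD. For 27 against 10 weeks under HFCSD it moved from 0 to 1 with the weaker flag and without the filter. With the weaker flag 15 probes, not 5, and 29266 of all 43603 were present on every array of a group.

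Leaving out 1 array gave 1 to 2 members called in control pigs, 1 to 2 under HFCD and 0 to 2 under HFCSD, and 0 to 1 for 27 against 10 weeks in control pigs. MYH7 probe 2 in control pigs turned to -0.0550 with the 75th percentile and -0.0386 with normexp, and ranged from -0.28 to 0.33 without single arrays. ATP2A1 probe 1 in control pigs ranged from -0.00990 to 1.29, and ATP2A1 probe 2 under HFCD from -0.0837 to 1.19. TNNI2 against control under HFCSD in whole blood at 27 weeks ranged from -0.57 to 0.12 without single arrays. Under other settings it ranged from -0.52 to -0.00987. At 19 weeks under HFCD these ranges were -0.86 to -0.42 and -0.96 to -0.32, and under HFCSD -1.26 to -0.71 and -1.24 to -0.47. The smallest differences under other settings were -0.30 for both diets at 10 weeks and -0.37 for HFCD in whole blood at 27 weeks. For 27 against 10 weeks TNNI2 in control pigs turned to 0.000202 with slide as random block and ranged from -0.20 to 0.20, and under HFCSD from -0.0412 to 0.65. Its difference between sample types, HFCD against control, ranged from -0.38 to 0.0689 without single arrays. For HFCSD against control that range was -1.06 to -0.37. The cause of these shifts was not tested.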
